A study of Mus musculus with 6 samples.

Results

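The 10 genes described here encode the cytoplasmic core of JAK-STAT signalling, the route by which interleukins, interferons and other cytokines act on hematopoietic stem cells. They are the kinase genes Jak1, Jak2 and Jak3, the transcription factor genes Stat3, Stat5a and Stat5b, and the inhibitor genes Socs1, Socs2, Socs3 and Cish. They were taken by gene symbol from the array's platform annotation, out of 19938 genes with a probe set of their own, and where a gene had several probe sets the brightest on average over 6 arrays stands for it. For Jak3 no probe set carried that symbol alone, so 9 genes were measured on their own and the probe set shared by Jak3 and its neighbour Insl3, which encodes an insulin-like peptide, is given as a shared value. Socs2 and Socs3 each had a second, dimmer probe set.

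JAK kinases sit on the inner tails of cytokine receptors and are activated when a ligand joins the receptor chains. They phosphorylate STAT proteins, which pair, enter the nucleus and bind DNA. Among the genes that STATs switch on are Cish and the SOCS genes, whose proteins block the same receptors and kinases, so the messages of these inhibitors are often read as a trace of recent signalling. In blood formation this route is known from erythropoietin, whose receptor uses JAK2 and STAT5.

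The arrays compared long-term hematopoietic stem cells (LT-HSCs), which reside in bone marrow and renew the blood throughout life, between Lxn-/- and WT mice. Lxn-/- mice carry a deletion of exons 2 to 4 of the gene for latexin, a carboxypeptidase inhibitor, and make no latexin protein, and WT mice have the intact gene. All were females of the C57BL/6 background, 8 to 12 weeks of age, and no treatment is named. Each genotype had 3 arrays, each with RNA of about 100000 cells pooled from 10 to 20 mice, sorted by surface phenotype (lineage negative, Sca1 positive, c-Kit positive, CD34 negative and negative for a marker written as Flt2). The labels do not say whether the deletion is limited to blood cells.

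Values are log2 expression after robust multi-array averaging (RMA), so a difference of 1 is a doubling, and levels are compared between arrays for 1 probe set at a time. The Lxn probe set averaged 8.74 ± 0.07 in Lxn-/- pools and 9.21 ± 0.30 in WT pools (SD, n = 3 each), with no overlap between the genotypes, as for 8.79% of all genes. The difference was -0.47 (SE 0.14, limma adjusted p = 0.993), so Lxn was not called, and its Lxn-/- values stayed above the odorant receptor level described next. The sources used here do not give where its probes lie relative to the deleted exons. All 12 measured LT-HSC markers, among them Kit, Procr and Hlf, lay above 6.93, a level under which 95% of 1210 probe sets for odorant and pheromone receptors lay, genes with no known use in blood cells. So did the progenitor genes Flt3 and Cd34, with means of 11.99 and 13.17 in Lxn-/- pools and 11.93 and 13.12 in WT pools. The sort was meant to avoid CD34, and also Flt3 if that is the marker written as Flt2, which the labels do not say. WT replicate 3 stood apart on the first principal component, with a score of 23.3 against scores between -12.6 and 7.97 for the other arrays.

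The promoters of the inhibitor genes Cish and Socs3 are shown because they carry the letters that STAT dimers are known to bind, while the listed promoters of Socs1 and of the kinase and STAT genes did not. The motif searched was TTCNNNGAA, which reads the same on both strands in its fixed letters, and the windows ran from 250 bases before to 50 bases after each annotated start (RefSeq, GRCm38.p6). Windows were listed for 9 of the 10 genes, and Socs2 had none. Cish had the motif at 2 places, beginning at positions 1 and 12 of the annotated transcript, and Socs3 had it once, beginning 154 bases before the start. Over all 32851 windows of that length, 8.3% held the motif and 0.457% held it more than once. The Cish stretch is chr9:107296409-107296688 on the plus strand and the Socs3 stretch is chr11:117969367-117969616 on the minus strand, both printed 5′ to 3′ with the motif in capitals.
Cish promoter: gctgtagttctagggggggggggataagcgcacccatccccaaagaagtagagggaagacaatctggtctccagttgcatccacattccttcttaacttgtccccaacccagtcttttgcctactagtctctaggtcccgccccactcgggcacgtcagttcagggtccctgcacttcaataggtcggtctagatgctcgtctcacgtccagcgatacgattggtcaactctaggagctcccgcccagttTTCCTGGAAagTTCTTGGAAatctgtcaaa
Socs3 promoter: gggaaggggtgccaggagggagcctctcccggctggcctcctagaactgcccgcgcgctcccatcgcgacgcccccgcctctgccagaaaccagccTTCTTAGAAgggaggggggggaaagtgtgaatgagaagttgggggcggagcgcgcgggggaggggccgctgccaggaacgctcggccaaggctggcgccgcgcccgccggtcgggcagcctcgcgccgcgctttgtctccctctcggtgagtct
A match of letters does not show that a STAT protein bound there in these cells.

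No kinase, STAT or inhibitor gene could be called different between Lxn-/- and WT LT-HSCs. In limma, with p-values adjusted over all 23410 probe sets with a symbol, 0 of the 9 genes passed 0.05, where 0% of all 19938 genes did. At an unadjusted p under 0.05 there were 0 of the 9, against 3.76% of all genes, of which 1.28% were higher and 2.47% lower in Lxn-/-. The 3 values of each genotype overlapped for each of the 9, and 8.79% of all genes had no overlap. Of the 9 genes, 3 had a higher and 6 a lower mean in Lxn-/- pools, with a median difference of -0.02, and of all genes 44.0% were higher, with a median of -0.01. Without WT replicate 3 the counts turned to 6 higher and 3 lower, with a median of 0.01. Of all genes 46.9% were then higher, with a median of -0.006. Without Lxn-/- replicate 3 the counts were 4 higher and 5 lower, where 43.9% of all genes were higher. Every difference below is Lxn-/- minus WT.

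**Figure D1:**
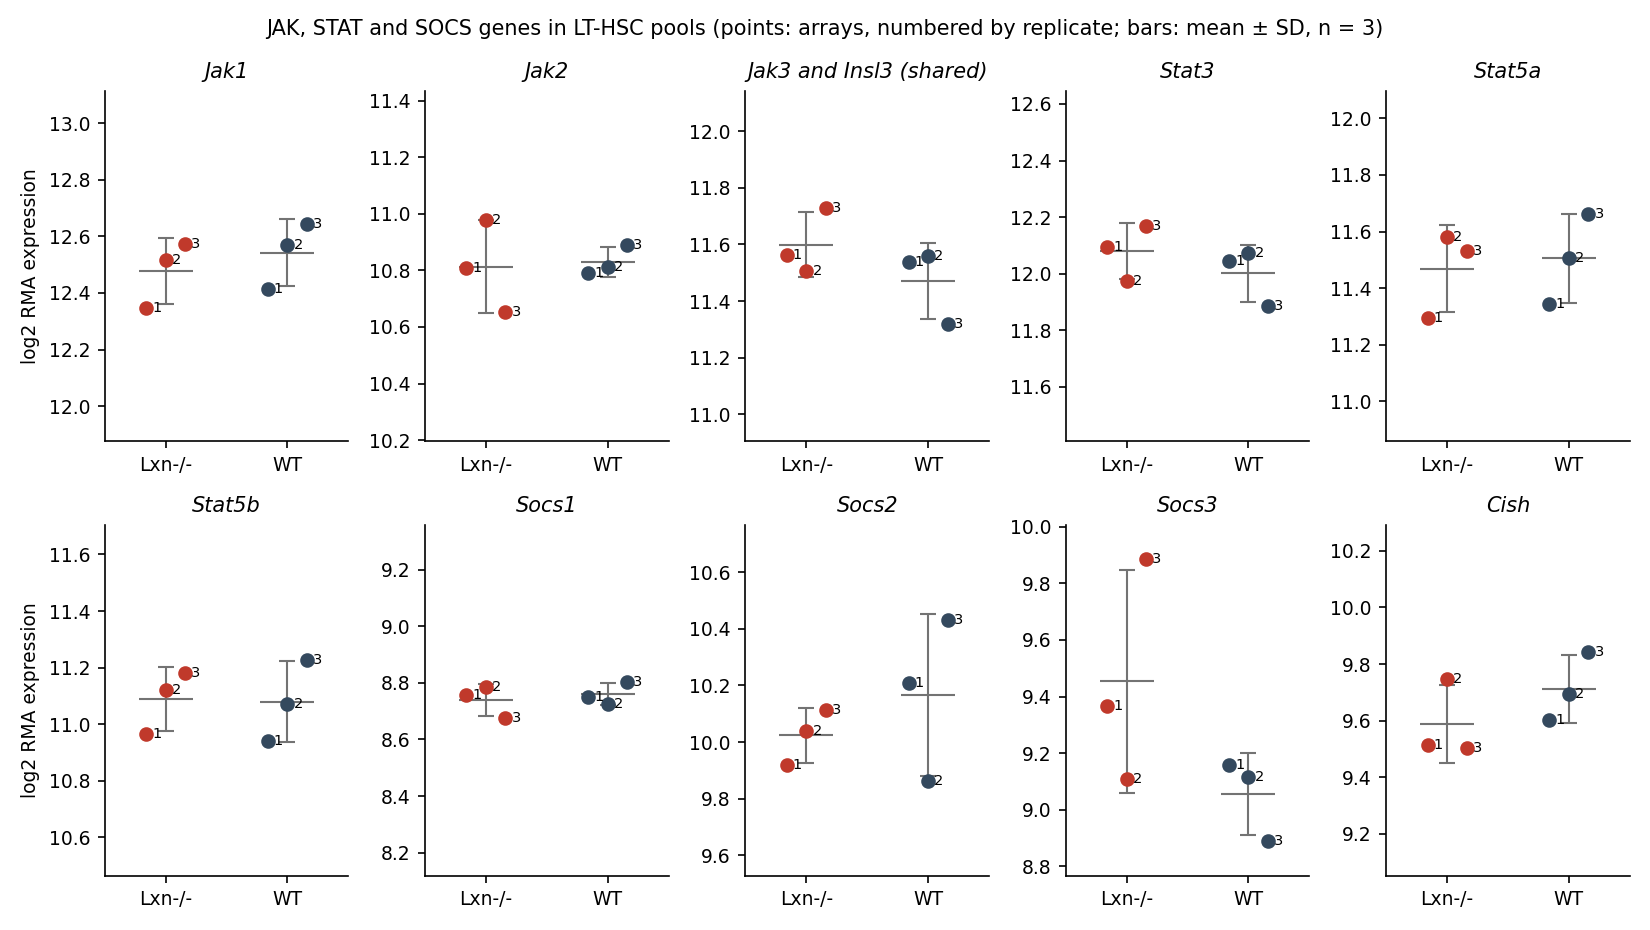
Log2 RMA expression (vertical axes, each spanning the same range) in the Lxn-/- and WT pools for each gene, with points numbered by replicate and bars for the mean ± SD (n = 3). The genotypes overlap in each panel, and Socs3 has the widest spread, from 8.89 in WT replicate 3 to 9.89 in Lxn-/- replicate 3.

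Jak1, the kinase shared by the receptors of the interleukin 6 and interferon families, gave 12.35, 12.52 and 12.57 in Lxn-/- replicates 1, 2 and 3 and 12.41, 12.57 and 12.64 in WT replicates 1, 2 and 3. The genotypes overlapped, and the lowest array of each was replicate 1. The means were 12.48 ± 0.12 in Lxn-/- and 12.54 ± 0.12 in WT (SD, n = 3 each), a difference of -0.06 (SE 0.09, 95% confidence interval -0.27 to 0.14, limma adjusted p = 0.993), and 0.0020 without Lxn-/- replicate 1. Jak2, the kinase of the erythropoietin receptor, gave 10.81, 10.98 and 10.65 in Lxn-/- pools and 10.79, 10.81 and 10.89 in WT pools. Both the highest and the lowest Jak2 value came from Lxn-/- pools, so that the SD was 0.16 in Lxn-/- and 0.05 in WT. Its difference was -0.02 (SE 0.09, 95% confidence interval -0.23 to 0.20, limma adjusted p = 0.996), 0.06 without Lxn-/- replicate 3 and 0.01 without WT replicate 3.

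Jak3 works with the common gamma chain of lymphoid cytokine receptors. The probe set that it shares with Insl3 gave 11.56, 11.51 and 11.73 in Lxn-/- pools and 11.54, 11.56 and 11.32 in WT pools. WT replicate 3 was the lowest array and Lxn-/- replicate 3 the highest, and the other 4 lay within a narrow band. The difference was 0.13 (SE 0.09, 95% confidence interval -0.09 to 0.34, limma adjusted p = 0.993), and it cannot be assigned to Jak3 alone.

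Stat3, the STAT of the interleukin 6 and G-CSF receptors, gave 12.09, 11.97 and 12.17 in Lxn-/- pools and 12.05, 12.07 and 11.89 in WT pools. Lxn-/- replicate 3 was again highest and WT replicate 3 lowest. The difference was 0.08 (SE 0.08, 95% confidence interval -0.11 to 0.27, limma adjusted p = 0.993), and 0.02 without WT replicate 3 or 0.03 without Lxn-/- replicate 3.

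Stat5a and Stat5b are neighbouring, closely similar genes whose proteins carry the signals of erythropoietin and interleukin 3, and whether their probes read each other's messages was not tested. Stat5a gave 11.30, 11.58 and 11.53 in Lxn-/- pools and 11.34, 11.51 and 11.66 in WT pools. Stat5b gave 10.96, 11.12 and 11.18 in Lxn-/- pools and 10.94, 11.07 and 11.23 in WT pools. For both genes replicate 1 of each genotype was low and WT replicate 3 was the highest array. The differences were -0.04 for Stat5a (SE 0.11, 95% confidence interval -0.29 to 0.21) and 0.01 for Stat5b (SE 0.09, 95% confidence interval -0.21 to 0.23), with limma adjusted p-values of 0.993 and 0.999. The Stat5a difference was 0.04 without WT replicate 3 and 0.05 without Lxn-/- replicate 1, and the Stat5b difference was -0.06 without WT replicate 1, -0.04 without Lxn-/- replicate 3 and -0.01 without Lxn-/- replicate 2.

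Among the inhibitors, Socs3 had the largest difference and the other 3 had lower means in Lxn-/- pools. Socs3, which blocks receptors of the interleukin 6 family and the G-CSF receptor, gave 9.37, 9.11 and 9.89 in Lxn-/- pools and 9.16, 9.12 and 8.89 in WT pools. Lxn-/- replicates 1 and 3 lay above all 3 WT arrays and Lxn-/- replicate 2 lay below WT replicates 1 and 2. The means were 9.45 ± 0.39 in Lxn-/- and 9.05 ± 0.15 in WT (SD, n = 3 each), a difference of 0.40 (SE 0.18, 95% confidence interval -0.02 to 0.82), which is 1.32-fold. The unadjusted limma p was 0.0604 and the adjusted p 0.993, and the exact two-sided permutation p was 0.3. The difference was 0.18 without Lxn-/- replicate 3 and 0.32 without WT replicate 3.

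The second Socs3 probe set did not follow the first. It gave 7.45, 7.57 and 7.78 in Lxn-/- pools and 7.61, 7.50 and 7.52 in WT pools. Its highest array was also Lxn-/- replicate 3, but its lowest was Lxn-/- replicate 1, and the difference was 0.06 (SE 0.09, 95% confidence interval -0.16 to 0.27). The mean of both probe sets gave 0.23.

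Socs2, the inhibitor of growth hormone signalling and a STAT5 target, gave 9.92, 10.04 and 10.11 in Lxn-/- pools and 10.21, 9.86 and 10.43 in WT pools. The Lxn-/- arrays lay between the lowest WT array, replicate 2, and the other two. The difference was -0.14 (SE 0.14, 95% confidence interval -0.46 to 0.17, limma adjusted p = 0.993), -0.01 without WT replicate 3 and -0.30 without WT replicate 2. Its second probe set gave 8.46, 8.50 and 8.49 in Lxn-/- pools and 8.65, 8.46 and 8.84 in WT pools, a difference of -0.17 (SE 0.10) with WT replicates 1 and 3 highest as on the brighter probe set.

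Cish, the STAT5-induced inhibitor with the paired motif shown above, gave 9.51, 9.75 and 9.50 in Lxn-/- pools and 9.60, 9.69 and 9.84 in WT pools. Lxn-/- replicates 1 and 3 lay below all WT arrays and Lxn-/- replicate 2 among them. The difference was -0.12 (SE 0.10, 95% confidence interval -0.34 to 0.09, limma adjusted p = 0.993, exact permutation p = 0.3), -0.06 without WT replicate 3, -0.08 without Lxn-/- replicate 3 and -0.20 without Lxn-/- replicate 2. Socs1, which inhibits the JAK kinases directly and restrains interferon signals, was the steadiest of the 9 genes. It gave 8.76, 8.79 and 8.67 in Lxn-/- pools and 8.75, 8.73 and 8.80 in WT pools, a difference of -0.02 (SE 0.07, 95% confidence interval -0.17 to 0.13) that was 0.01 without Lxn-/- replicate 3 and 0.00088 without WT replicate 3.

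**Figure D2:**
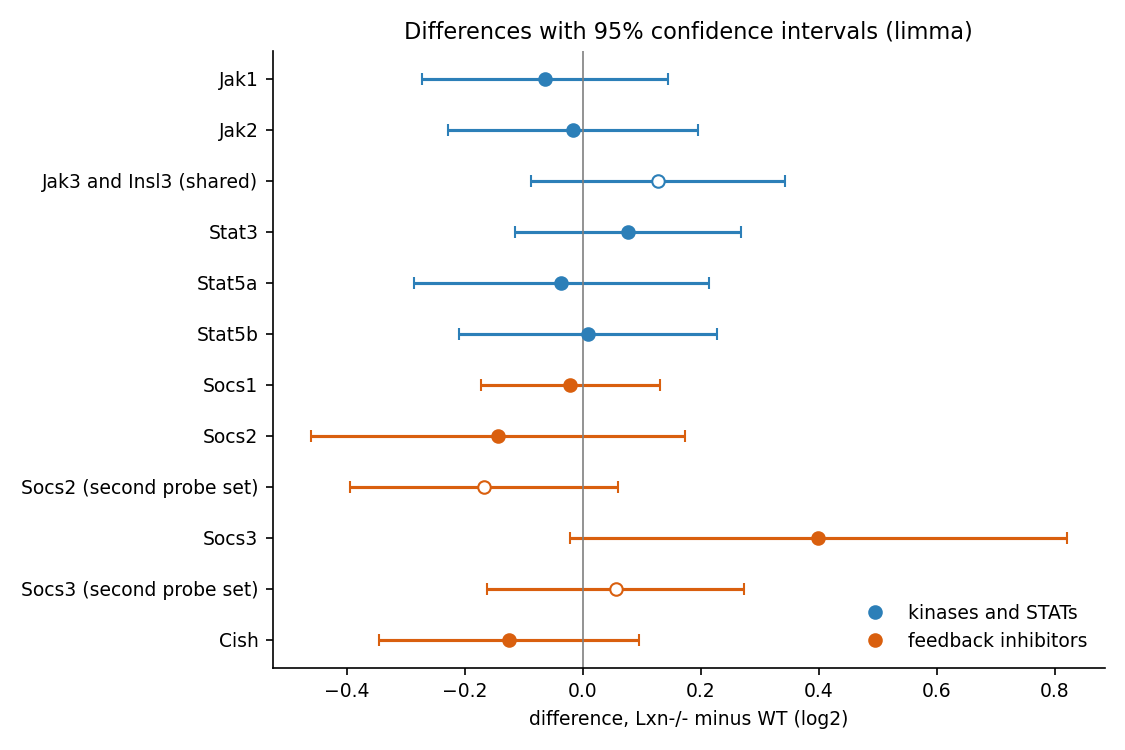
Difference in log2 RMA expression, Lxn-/- minus WT (horizontal axis), for each probe set of the JAK, STAT and SOCS genes, with limma's 95% confidence intervals over 3 arrays per genotype. Open points are second probe sets and the probe set shared by Jak3 and Insl3. Each interval includes 0, and the Socs3 interval, -0.02 to 0.82, is the widest.

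Kinases and STATs were set against the feedback inhibitors by array. With each gene centred on its mean over 6 arrays, the mean of the 4 inhibitors stood at -0.05, -0.02 and 0.11 in Lxn-/- replicates 1, 2 and 3 and at -0.01, -0.09 and 0.05 in WT replicates 1, 2 and 3. The mean of the 5 kinases and STATs stood at -0.09, 0.05 and 0.03 in Lxn-/- pools and at -0.08, 0.02 and 0.07 in WT pools. Neither class separated the genotypes. Inhibitors minus kinases and STATs averaged 0.02 ± 0.07 in Lxn-/- and -0.02 ± 0.09 in WT (SD, n = 3 each), a difference of 0.03, which is smaller than the spread in either genotype. The sign and size depended on the setting: the difference was 0.17 with class medians, -0.0094 after quantile normalization, -0.012 with the mean of all probe sets of a gene and -0.011 without WT replicate 2. Among the inhibitors Socs3 had the higher mean in Lxn-/- pools and the other 3 the lower, and the same difference was -0.09 without Socs3, 0.09 without Socs2 and 0.08 without Cish. No p is given for these class values because the genes were picked with results of these arrays known.

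The genes were also sorted by array pattern. The sorting was done with the values in view and is a description without a test. Stat3, Socs3 and the probe set of Jak3 and Insl3 were lowest in WT replicate 3 and highest in Lxn-/- replicate 3, with Lxn-/- replicate 1 next highest and Lxn-/- replicate 2 next lowest in each. Jak1, Stat5a, Stat5b, Socs1, Socs2 and Cish were all highest in WT replicate 3. Jak2 was highest in Lxn-/- replicate 2, with WT replicate 3 next. The genes highest in WT replicate 3 did not share the order of the other arrays. Lxn-/- replicate 3 was the lowest array for Socs1 and Cish but the next highest for Jak1 and Stat5b. WT replicate 1 was lowest for Stat5b but next highest for Socs2. STATs and inhibitors thus occurred in both sets.

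Other gene lists also differed between these arrays. The median of 30 immediate early genes, whose messages appear within minutes in stimulated cells, stood at 0.15, 0.07 and 0.24 in Lxn-/- replicates 1, 2 and 3 and at 0.09, -0.11 and -0.40 in WT replicates 1, 2 and 3. The median of 14 neutrophil markers stood at 0.28, -0.86 and 1.42 in Lxn-/- pools and at 0.82, 0.04 and -1.47 in WT pools, so that Lxn-/- replicate 3 and WT replicate 3 were its extremes, as they were for Socs3. Not every marker followed this median. Elane, Mpo and Prtn3 were not highest in Lxn-/- replicate 3, and Lcn2, Retnlg and Cxcr2 were lowest in Lxn-/- replicate 2. The remaining neutrophil markers had the same extremes as the median. The median of 10 erythroid markers ran the other way, at -0.21, 0.16 and -0.28 in Lxn-/- pools. In WT pools it stood at -0.13, 0.06 and 0.41. Alas2 was highest in WT replicate 1 and lowest in Lxn-/- replicate 2. Tfrc was lowest in WT replicate 1, and Slc4a1 and Trim10 were lowest in Lxn-/- replicate 1. The remaining erythroid markers had the same extremes as their median. Each of the 14 neutrophil and 10 erythroid genes had a mean over 6 arrays above the odorant receptor level. Mmp8 fell below it in WT replicate 3 (5.70) and Lxn-/- replicate 2 (6.22), as did Ly6g (6.71 and 6.72). B cell markers had medians of -0.19, -0.10 and -0.36 in Lxn-/- pools and 0.22, -0.10 and 0.40 in WT pools over 13 genes, 12 of which had a lower mean in Lxn-/-, the lowest p being that of the B cell coactivator gene Pou2af1 (-0.74, SE 0.12), then Fcrla (-0.60, SE 0.14) and the immunoglobulin gene Ighm (-0.38, SE 0.11). The 9 plasma cell markers all had lower means, among them Mzb1 (-0.80, SE 0.12), Sdc1 (-0.48, SE 0.08) and Txndc5 (-0.48, SE 0.08). Single markers of other lists at an unadjusted p under 0.05 were the lymphoid progenitor gene Ly6d (-0.91, SE 0.22), the protease gene Ctss (-0.49, SE 0.12) and the heme synthesis gene Alas2 (-0.27, SE 0.12). Median differences were 0.10 for monocyte and macrophage, 0.02 for megakaryocyte, 0.07 for T and NK cell and -0.27 for mast cell and basophil markers. The part of other cells in the values of the JAK, STAT and SOCS genes was not tested, and in pooled RNA a smaller share of cells of a type and less RNA per cell cannot be told apart.

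**Figure D3:**
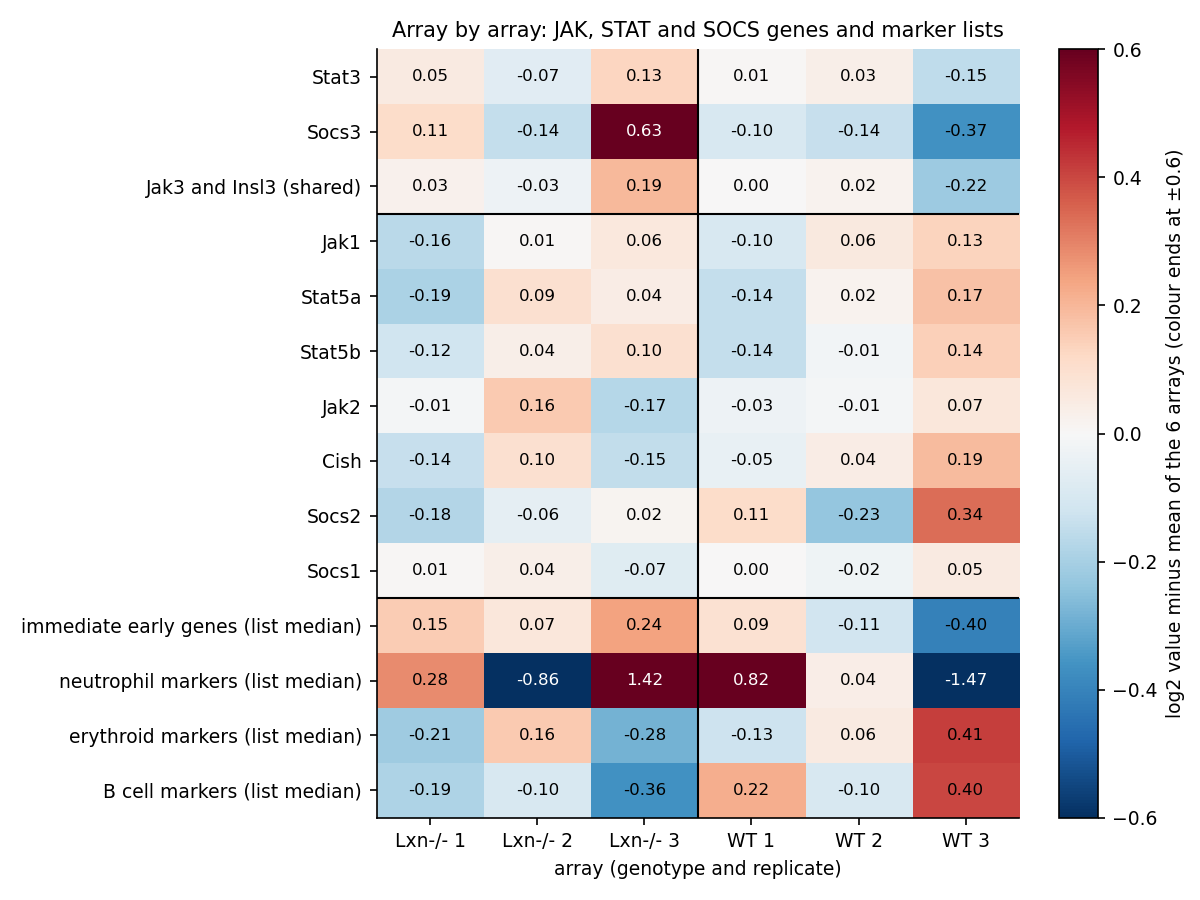
Log2 expression minus the mean of the 6 arrays (colour and printed value) for each gene and for the medians of 4 gene lists (rows), in each array (columns). Socs3 reaches 0.63 in Lxn-/- replicate 3 and -0.37 in WT replicate 3, where the neutrophil marker medians are 1.42 and -1.47.

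The genes closest to Socs3 and Socs2 in array pattern were then listed, since these had the widest ranges over the 6 arrays, 0.996 and 0.57. Likeness was the mean absolute gap between centred log2 values over 6 arrays. For Socs3 the closest was Csrnp1, an immediate early transcription factor gene, with a gap of 0.067, where a flat profile would have 0.25. Csrnp1 gave 10.52, 10.25 and 10.78 in Lxn-/- pools and 10.30, 10.23 and 10.00 in WT pools. Next came the lipoprotein receptor gene Vldlr (0.075), the homeobox gene Nkx2-3 (0.076) and the odorant receptor gene Olfr1382 (0.079), whose signal lay below the odorant receptor level of 6.93. For Socs2 the closest was Bst1, which encodes a surface ADP-ribosyl cyclase, with a gap of 0.033 against 0.15 for a flat profile. Its next 3, Gm16381 (0.039), Olfr671 (0.046) and BC048644 (0.047), all lay below that level.

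Beyond these genes the pathway was followed through lists chosen by known role, in which 0 genes passed the adjusted threshold. Of 4 other JAK and STAT genes, 3 had a higher mean in Lxn-/- pools, with a median difference of 0.03. Stat2, which carries type I interferon signals, gave 10.27, 10.30 and 10.25 in Lxn-/- pools and 10.23, 10.18 and 10.11 in WT pools, so the groups did not overlap, with a difference of 0.10 (SE 0.06). Tyk2, the kinase paired with Jak1 on interferon receptors, differed by -0.05 (SE 0.09) and Stat6, the interleukin 4 STAT, by 0.04 (SE 0.07).

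Socs4, Socs5, Socs6 and Socs7, the less cytokine-inducible relatives, had a median difference of -0.05 with 1 of 4 higher. Socs5 differed by -0.08 (SE 0.08), Socs4 by -0.07 (SE 0.10) and Socs7 by -0.03 (SE 0.06). Of 17 other negative regulators, which include phosphatases, PIAS proteins, ubiquitin ligase parts and adaptors, 9 were higher, with a median of 0.02 and 0 at an unadjusted p under 0.05. The interferon-induced protease gene Usp18 differed by 0.17 (SE 0.14), the phosphatase gene Ptprc by 0.10 (SE 0.09) and the phosphatase gene Ptpn6 by -0.08 (SE 0.08).

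Among 30 receptors that signal through JAKs, 5 had no overlap between the genotypes, 2 with lower and 3 with higher values in Lxn-/- pools, where 8.79% of all genes had no overlap. Il5ra, the interleukin 5 receptor chain of eosinophils and some B cells, gave 7.67, 8.13 and 7.60 in Lxn-/- pools and 8.80, 8.51 and 8.42 in WT pools. All 3 Lxn-/- arrays lay below all 3 WT arrays, and the difference was -0.78 (SE 0.15), with a limma adjusted p of 0.993 and an unadjusted p of 0.00104. Il13ra1, the interleukin 13 receptor chain, gave 8.18, 8.13 and 7.88 in Lxn-/- pools and 8.78, 8.34 and 8.63 in WT pools, also without overlap, a difference of -0.52 (SE 0.13). Il12rb1, a chain of the interleukin 12 receptor, gave 9.53, 9.70 and 9.60 in Lxn-/- pools and 9.41, 9.52 and 9.40 in WT pools, a difference of 0.16 (SE 0.07). The others without overlap, named after their values were seen, were Il27ra, with a difference of 0.14 (SE 0.08), and Ifnar1, with one of 0.03 (SE 0.06). In the 3 with higher values the lowest Lxn-/- array lay barely above the highest WT array. These arrays gave 9.5262 and 9.5248 for Il12rb1, 10.48 and 10.473 for Il27ra, and 10.631 and 10.63 for Ifnar1. Of all 30, 17 had a higher mean and 13 a lower one, the median was 0.01, and Il5ra and Il13ra1 were the 2 at an unadjusted p under 0.05, where 3.76% of all genes were. Beside them stood B cell markers with 6 of 13 and plasma cell markers with 9 of 9 lower at that level.

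Of 21 ligand genes, 11 were higher with a median of 0.03, and 8 of the 21 lay above the odorant receptor level. Lif, a ligand of the interleukin 6 family, gave 7.66, 7.41 and 7.55 in Lxn-/- pools and 7.37, 7.39 and 7.14 in WT pools, without overlap, a difference of 0.24 (SE 0.10). Osm, a related ligand that is itself a STAT5 target, differed by 0.31 (SE 0.15) and Il2, which lay below that level, by 0.20 (SE 0.10).

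Most STAT3 targets outside the SOCS family had higher means in Lxn-/- pools, where 44.0% of all genes did, and 0 passed the adjusted threshold. Of 23 STAT3 targets, 20 had a higher mean in Lxn-/- pools, with a median difference of 0.13. At an unadjusted limma p under 0.05, 4 were higher, against 1.28% of all genes. The median of centred values stood at 0.06, -0.05 and 0.15 in Lxn-/- replicates 1, 2 and 3. It stood at -0.01, -0.02 and -0.12 in WT replicates 1, 2 and 3. The genotypes overlapped, with Lxn-/- replicate 2 below WT replicates 1 and 2. Junb, an AP-1 subunit, gave 10.38, 10.19 and 10.27 in Lxn-/- pools and 10.06, 10.03 and 9.59 in WT pools, a difference of 0.39 (SE 0.13). Nfkbiz, whose protein binds NF-kB in the nucleus, had a difference of 0.42 (SE 0.16), and Timp1, a metalloproteinase inhibitor, one of 0.27 (SE 0.09) at means of 6.51 in Lxn-/- and 6.24 in WT, below the odorant receptor level. Without the 5 targets that also stand in the immediate early list, 16 of 18 were higher with a median of 0.11. Of these 18, 2 were higher at an unadjusted limma p under 0.05. Of the full list, 19 were higher with a median of 0.07 without WT replicate 3, where 46.9% of all genes were higher. Of the same list, 17 were higher with a median of 0.05 without Lxn-/- replicate 3, against 43.9% of all genes. These are the arrays at the extremes of Stat3 and Socs3.

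Of 20 STAT5 targets, 12 had a higher mean and the median was 0.05, where 44.0% of all genes were higher. Without WT replicate 3 these values were 16 and 0.08, against 46.9% of all genes higher. Without Lxn-/- replicate 3 they were 11 and 0.03, against 43.9%. Id1, a dominant-negative helix-loop-helix factor, gave 8.61, 8.59 and 8.58 in Lxn-/- pools and 8.28, 8.47 and 8.18 in WT pools, without overlap, a difference of 0.28 (SE 0.08). Irf4, a transcription factor of activated B cells and plasma cells, gave 9.76, 9.62 and 9.50 in Lxn-/- pools and 10.74, 10.04 and 10.10 in WT pools, a difference of -0.67 (SE 0.18), and it is itself 1 of the 9 plasma cell markers, all of which had lower means. The G1 cyclin gene Ccnd2 differed by -0.17 (SE 0.07). Whether the STAT3 and STAT5 target lists differed from each other was not tested.

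Immediate early genes were higher for 27 of 30, against 44.0% of all genes, with a median of 0.33, and 0 passed the adjusted threshold. At an unadjusted limma p under 0.05, 7 were higher, against 1.28% of all genes. Those of lowest p were Dusp2 (0.38, SE 0.10), a phosphatase of MAP kinases, Ccn1 (0.37, SE 0.11), a matricellular protein gene, and Junb, described above. The median was 0.19 without WT replicate 3 and 0.23 without Lxn-/- replicate 3.

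**Figure D4:**
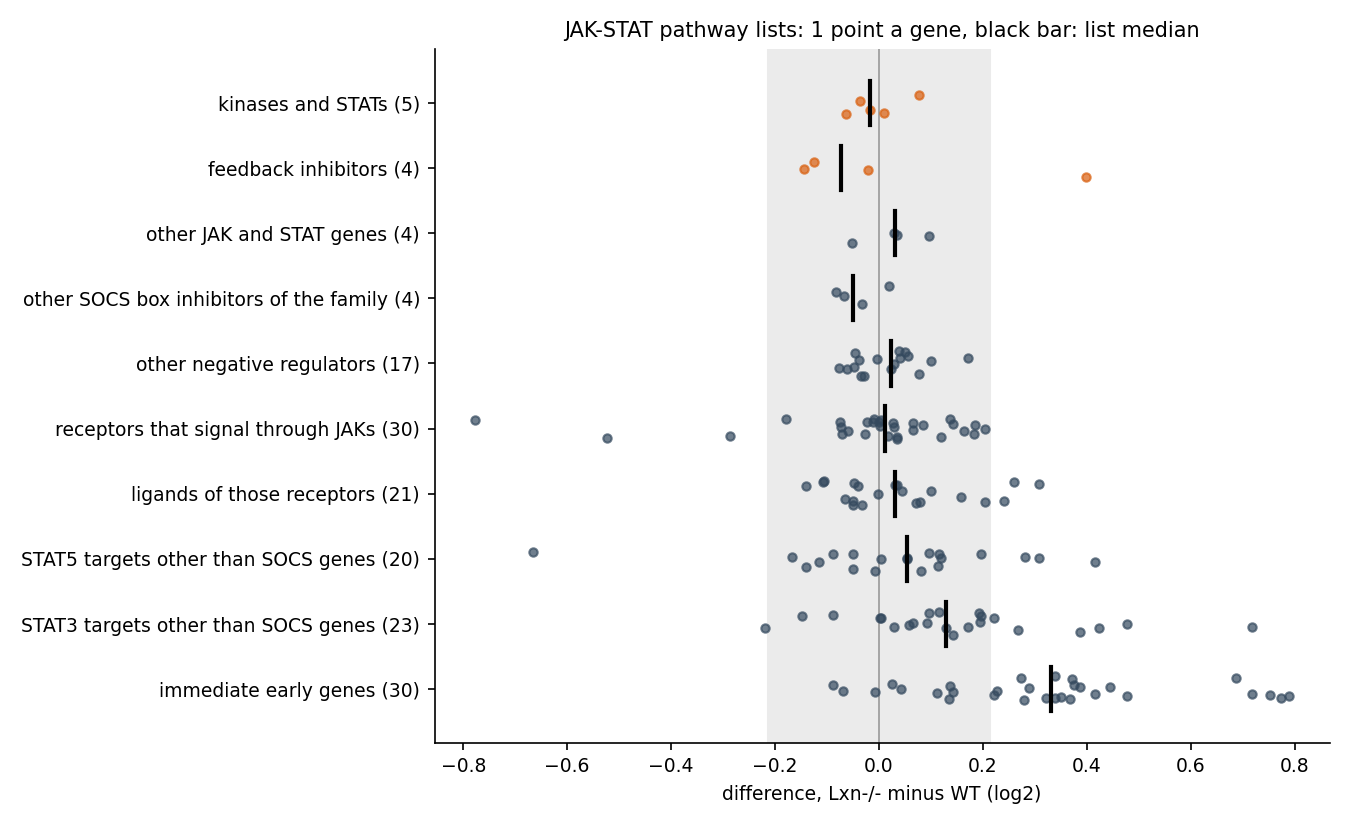
Difference in log2 expression, Lxn-/- minus WT (horizontal axis), for each gene of the kinases and STATs, the feedback inhibitors and 8 pathway lists, with gene numbers in brackets and a black bar at each median. The grey band marks the 95th percentile of absolute differences over all genes, 0.21. Socs3 is the 1 inhibitor outside the band, while the immediate early genes have a median of 0.33.

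The STAT motif was also set against the genotype difference over all genes, with no test. Of 15614 genes with both a promoter window and a probe set of their own, 1403 held TTCNNNGAA, with 46.1% higher in Lxn-/- pools and a median difference of -0.01, and of the genes without it 43.4% were higher, also with a median of -0.01. The 81 genes with the motif more than once, as in Cish, had a median of -0.01. Of target genes with a window, the motif was found for 2 of 14 STAT5 targets (Bcl6 and Gfi1b) and 2 of 20 STAT3 targets (Icam1 and Tnfrsf1a). These counts describe short windows only.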

How the data were processed

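RNA of 3 Lxn-/- and 3 WT pools, 100 ng each per the labels' protocols, was hybridised to Affymetrix mouse Gene ST arrays. The deposited table holds log2 values after RMA by the authors, per the series' design text, which also names limma. Partek 6.0 is named in the submitters' processing notes. For probe set definitions and filters the sources used here give nothing. Array medians ran from 7.77 to 7.91, and precision is limited by having 3 arrays a genotype.

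Of 35557 probe sets, 21789 had 1 symbol in GEO's platform annotation, 1621 had several and 12147 are unnamed here. The 23410 with a symbol were tested with limma 3.58.1 in R 4.3.3 (lmFit and eBayes, no covariates, two-sided, Benjamini-Hochberg), a step tested on simulated data. P-values measure the spread between pools. The exact permutation test of 3 arrays against 3 cannot give a p below 0.1. The planned kinase class included Jak3, which was left out of it because its probe set also carries Insl3.

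The genes, lists and tests were chosen with earlier results of these data known. Genes were named by a rule: all 10 genes of the core, up to 3 per pathway list by lowest p, up to 3 per marker list at an unadjusted p under 0.05, Lxn, and 4 by likeness to each of the 2 with the widest range. Alternatives were other normalizations, filters, weights, priors, a replicate block and leaving out arrays or, added afterwards, single genes. A planned pathway list is not reported here.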

Additional observations from a re-analysis of the deposited data

How the results depend on the processing

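No probe set was called (0) in any of the 13 alternatives, where the lowest adjusted p in limma ran from 0.134 to 1, and 0 of the 9 genes were called. Stat3, Socs2, Socs3 and Cish kept their direction in all alternatives, with differences from 0.019 to 0.13, from -0.30 to -0.0095, from 0.18 to 0.57 and from -0.20 to -0.061. The other 5 differences were near 0 and had the opposite sign in 14 of their 65 values. For all 9 genes some of the alternatives could not change the difference. These are the filter for dim probe sets, the changed prior and the replicate block. The mean of all probe sets also changes nothing for a gene with 1 probe set. With array weights Jak2 was 0.0043, Socs1 0.0046 and Stat5b -0.012, and with a common median Stat5b was -0.036. Leaving out single arrays gave -0.13 to 0.0020 for Jak1, -0.099 to 0.064 for Jak2, -0.12 to 0.051 for Stat5a, -0.060 to 0.083 for Stat5b and -0.044 to 0.012 for Socs1, which was -0.081 after quantile normalization. Inhibitors minus kinases and STATs was 0.034, with a range of -0.011 to 0.079 over fits without 1 array, 0.17 with class medians in place of means, -0.0094 after quantile normalization and -0.012 with the mean of all probe sets of a gene. Chosen after seeing the data, leaving out single genes gave -0.090 without Socs3 up to 0.091 without Socs2, and adding the probe set of Jak3 and Insl3 gave 0.011. Correlations of deviations from the genotype mean were 0.37, -0.07 and -0.08 for same-numbered arrays of the genotypes. For other pairs of arrays they ran from -0.34 to 0.36. Whether the replicate numbers pair the pools cannot be settled from these values. With the replicate block 0 probe sets were called. The block leaves the difference of genotype means as it is, so the class difference of 0.034 could not change.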
